A study of Homo sapiens with 6 samples.

Results

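ERK feedback and output genes are genes that the kinase ERK switches on, several of which then restrain the pathway that activated it. The 10 genes followed here were SPRY2, SPRY4, SPRED1, SPRED2, DUSP4, DUSP5, DUSP6, ETV4, ETV5 and PHLDA1. They were chosen by name, with earlier results of these data known, and all 10 were found among the 23002 genes of the deposited table. They were read as an mRNA readout of ERK activity in U251 cells, an established human glioblastoma line, in which the mRNA of the receptor EGFR was lower after knockdown of TRAF2, an adaptor and ubiquitin ligase of TNF receptor signaling. RNA was sequenced from 3 samples labelled NC, here sh-NC, and 3 samples labelled KD, here sh-TRAF2. The study's design text describes the 3 samples of each group as biological replicates. Both groups were stable lines, made with lentiviral vectors and selected with puromycin. In the TRAF2 vectors a U6 promoter drives the short hairpin RNA (shRNA). The study names its control sh-NC, but its list of hairpins gives no vector or sequence for that control. The labels name no TNF-α treatment for these samples. The study made a pair of TRAF2 hairpins, and which of them was sequenced, and whether the lines were pools or clones, is not given in the sources used here. The p-values and intervals below therefore measure spread between samples, and cannot be read as spread between hairpins or separately made lines.

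Growth factor receptors such as EGFR activate RAS, which starts a chain of kinases from RAF through MEK to ERK. Active ERK enters the nucleus and induces genes within minutes to hours. Sprouty and SPRED proteins, encoded by SPRY and SPRED genes, then act near RAS and RAF, whereas the phosphatases of the DUSP family remove the activating phosphates from ERK and related kinases. ETV4 and ETV5 are transcription factors of the ETS family, and PHLDA1 is a pleckstrin homology domain protein induced by growth factors. The repressor CIC keeps several of these genes silent until ERK inactivates it. In glioblastoma, EGFR is often amplified or overexpressed, and this set of genes is widely used as a transcript measure of pathway output.

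TRAF2 was measured first, since it checks the labels. Its level in FPKM, fragments per kilobase of gene scaled to the depth of the library, was 15.07, 18.38 and 15.35 in the sh-NC samples and 3.26, 3.22 and 3.33 in the sh-TRAF2 samples. TRAF2 fell by 2.27 on the log2 scale (SE 0.079, limma with Benjamini-Hochberg adjustment, adjusted p = 1.16e-06). Fold changes here are on the log2(FPKM + 0.1) scale, and cover the 11870 genes whose mean over the 6 samples reached 0.5 FPKM, and a gene passed when its adjusted p was under 0.05. Library totals read from the FPKM values were 34315233 to 37165301 reads, and samples of a group were not copies of each other, since the chi-square per gene between their reads was 5.28 to 13.05, where counting error alone gives about 1. Of 8 glial and glioma markers in the table, 7 reached 1 FPKM in at least 1 sample, and S100B was at 0 in sh-NC and held 1 read at most in any sh-TRAF2 sample. Their summed level was 1460 to 1530 FPKM in sh-NC and 1810 to 1860 FPKM in sh-TRAF2, of which most was VIM, the gene of the filament protein vimentin. Without VIM the sums of both groups overlapped, at 247 to 252 FPKM in sh-NC and at most 254 FPKM in sh-TRAF2. CD44 held most of that sum, with means of 189.0 and 179.0 FPKM. NES rose from a mean of 5.35 to 11.7 FPKM, by 1.12 on the log2 scale (limma adjusted p = 1.91e-05). GFAP rose by 1.11 (limma adjusted p = 0.0382), with overlapping samples and a sh-NC mean of 0.467 FPKM, below the 0.5 FPKM limit. Of 7 tested markers, VIM included, 3 were higher and 4 did not pass. That is 42.9% passing, beside 44.6% of all tested genes. Of 11 markers of other cell types, only the neuronal gene SYT1 reached 1 FPKM, and the summed level of the list was 24.4 to 27.7 FPKM in sh-NC and 14.1 to 14.8 FPKM in sh-TRAF2. The part of these shifts in the results on ERK genes was not tested, and in bulk RNA a lower level per cell and fewer cells with that level cannot be told apart.

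Sequence was examined around the transcription starts of the ERK genes, with 300-base windows from RefSeq (GRCh38.p14) that run from 250 bases before to 50 bases after a start. There were 9 windows for 6 of the 10 genes, of which SPRY2 had 3, SPRED2 had 2, and SPRY4, SPRED1, DUSP6 and PHLDA1 had 1 each. Motifs were searched on both strands. The ETS motif CCGGAA, the core that ETV4 and ETV5 recognise, was found in 1 window of SPRY2 and in the window of PHLDA1, and in 17.2% of all 35116 windows. The CIC motif, searched as TGAATGAA, TGAATGGA, TCAATGAA or TCAATGGA, was found in the window of DUSP6 and in 3.77% of all windows. DUSP6 held 2 such matches, as 0.327% of all windows held 2 or more. The AP-1 motif, TGACTCA or its reverse complement TGAGTCA, was in 1 window of SPRED2 and in 4.95% of all windows, and the cAMP response element TGACGTCA was in none of the 9 and in 1.85% of all windows. A match says only that these letters stand in the window. The following 100-base stretches, on the minus strand and 5′ to 3′, show the matches in the genes that rose or fell the most and in the gene with the paired CIC matches, with the motif in capitals.
SPRY2, chr13:80341216-80341315: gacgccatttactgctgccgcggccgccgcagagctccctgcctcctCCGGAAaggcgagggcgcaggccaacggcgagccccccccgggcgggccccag
PHLDA1, chr12:76031813-76031912: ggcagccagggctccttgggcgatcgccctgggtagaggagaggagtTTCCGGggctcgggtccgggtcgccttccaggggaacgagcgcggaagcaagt
DUSP6, chr12:89352472-89352571: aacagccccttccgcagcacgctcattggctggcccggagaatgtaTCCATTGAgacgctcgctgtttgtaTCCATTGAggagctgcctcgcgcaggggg

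The 10 genes did not move together after TRAF2 knockdown. SPRY2, SPRY4 and DUSP6 rose, PHLDA1 and DUSP4 fell, and SPRED1, SPRED2, DUSP5, ETV4 and ETV5 did not pass the test. All 10 had passed the filter on low values. The 5 genes that passed make up 50.0% of the set, beside 44.6% of all genes tested. By direction, 23.7% of all genes tested were higher and 20.9% were lower, and the 3 higher and 2 lower ERK genes are a share near that of the whole table. None of the 10 also changed by more than 1 on the log2 scale, a limit that 1.72% of all tested genes passed. The median log2 fold change was 0.08 over the ERK genes and 0.02 over all tested genes, and that of the ERK genes was 0.13 without sh-NC replicate 1 and 0.06 to 0.13 with any 1 sample left out. The samples of both groups did not overlap for 5 of the 10 genes, 3 higher and 2 lower, as for 55.5% of all tested genes (29.0% higher and 26.5% lower).

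**Figure D1:**
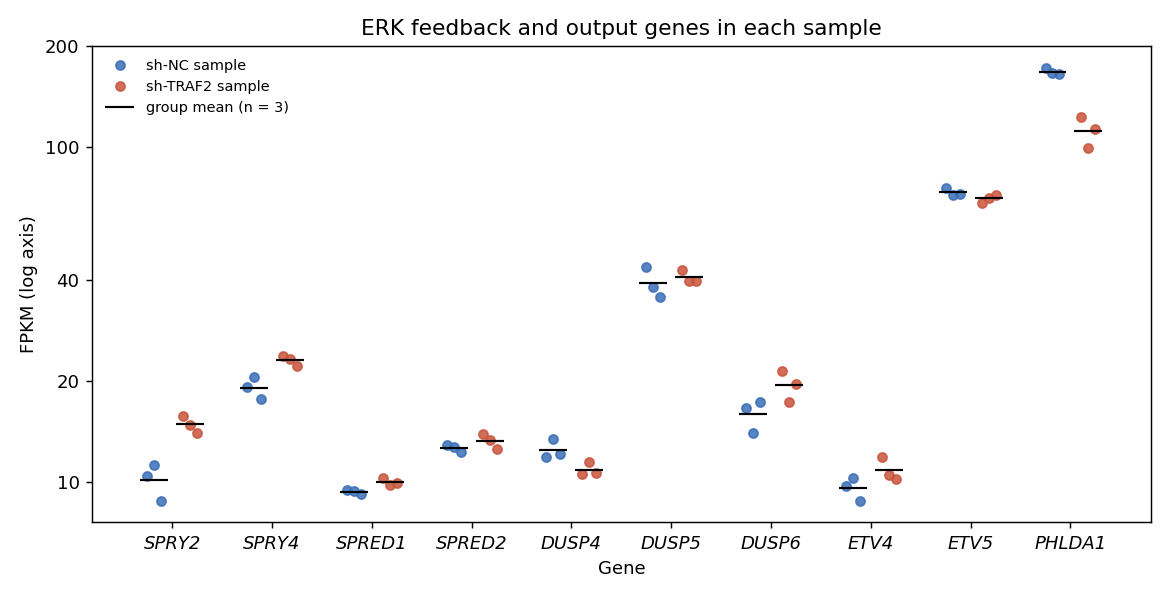
FPKM on a log axis for each of the 10 ERK feedback and output genes, with a point for each of the 3 sh-NC and 3 sh-TRAF2 samples and a bar at each group mean. SPRY2, SPRY4 and SPRED1 are higher and DUSP4 and PHLDA1 lower in every sh-TRAF2 sample than in any sh-NC sample, although SPRED1 did not pass. The points of DUSP6, SPRED2, DUSP5, ETV4 and ETV5 overlap between groups.

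The Sprouty genes rose. SPRY2, a regulator of receptor signaling to RAS, was at 10.44, 11.22 and 8.82 FPKM in sh-NC and at 15.76, 14.82 and 14.00 FPKM in sh-TRAF2. Every sh-TRAF2 sample was above every sh-NC sample, and the mean rose from 10.2 ± 1.23 to 14.9 ± 0.877 FPKM (SD, n = 3 each), 46.3% higher. The log2 fold change was 0.55 (SE 0.089, 95% interval 0.35 to 0.75, adjusted p = 0.00148 by limma), higher than that of 94.2% of all tested genes. SPRY4, which restrains signaling upstream of ERK, was at 19.16, 20.57 and 17.69 FPKM in sh-NC and at 23.85, 23.33 and 22.23 FPKM in sh-TRAF2. Its groups did not overlap either, but its change was smaller, at 0.27 on the log2 scale (SE 0.061, 95% interval 0.14 to 0.41, limma adjusted p = 0.00691), 20.9% higher. For both genes the exact permutation test over samples gave p = 0.1, the smallest that 3 samples against 3 allow.

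The SPRED genes, which recruit the RAS-inactivating protein neurofibromin to the membrane, were close to level between the groups. SPRED1 was at 9.46, 9.40 and 9.20 FPKM in sh-NC and at 10.28, 9.81 and 9.95 FPKM in sh-TRAF2. Although these ranges did not overlap, the difference was 0.10 on the log2 scale (SE 0.047, 95% interval -0.01 to 0.20) and did not pass, with a limma adjusted p of 0.121. SPRED2 was at 12.91, 12.72 and 12.32 FPKM in sh-NC and at 13.89, 13.33 and 12.59 FPKM in sh-TRAF2, and its lowest sh-TRAF2 sample lay among the sh-NC samples. Its log2 fold change was 0.07 (95% interval -0.05 to 0.19, limma adjusted p = 0.314). The upper ends of both intervals lie below the estimate for SPRY4, so that a change of that size in either SPRED gene falls outside its interval.

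The 3 DUSP phosphatases went different ways. DUSP6, a cytoplasmic phosphatase selective for ERK, was at 16.63, 14.01 and 17.36 FPKM in sh-NC and at 21.46, 17.29 and 19.57 FPKM in sh-TRAF2. Its mean rose from 16 ± 1.76 to 19.4 ± 2.09 FPKM (SD, n = 3 each) and the log2 fold change was 0.28 (SE 0.098, limma adjusted p = 0.0461), but the lowest sh-TRAF2 sample was below the highest sh-NC sample. The call was lost without sh-NC replicate 1 (0.31, adjusted p = 0.0666), sh-NC replicate 2 (0.19, adjusted p = 0.12), sh-TRAF2 replicate 1 (0.21, adjusted p = 0.144) or sh-TRAF2 replicate 3 (0.27, adjusted p = 0.106), all by limma, and over 15 alternatives in all the adjusted p ran from 0.00618 to 0.144. DUSP4, a nuclear phosphatase for ERK and other MAP kinases, was at 11.85, 13.43 and 12.14 FPKM in sh-NC and at 10.57, 11.45 and 10.68 FPKM in sh-TRAF2. Every sh-TRAF2 sample of DUSP4 was below every sh-NC sample, and it fell by 0.19 on the log2 scale (SE 0.062, limma adjusted p = 0.0344). DUSP4 also did not pass without sh-NC replicate 2 (-0.14, adjusted p = 0.0884), sh-NC replicate 3 (-0.21, adjusted p = 0.0535), sh-TRAF2 replicate 1 (-0.17, adjusted p = 0.0961) or sh-TRAF2 replicate 3 (-0.18, adjusted p = 0.0989), with a range of 0.0152 to 0.0989 over the 15 alternatives fitted with limma. DUSP5, a nuclear phosphatase that also holds ERK in the nucleus, was the most abundant DUSP of the set, at 43.80, 38.09 and 35.75 FPKM in sh-NC and 42.94, 39.77 and 39.76 FPKM in sh-TRAF2. The DUSP5 groups overlapped, and its log2 fold change was 0.06 (95% interval -0.10 to 0.23, limma adjusted p = 0.516).

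The ETS factors ETV4 and ETV5 did not pass. ETV4 was at 9.77, 10.27 and 8.81 FPKM in sh-NC and at 11.92, 10.48 and 10.20 FPKM in sh-TRAF2, so that 1 sh-NC sample lay within the sh-TRAF2 range. The log2 fold change of ETV4 was 0.17 (SE 0.078, 95% interval -0.01 to 0.35, limma adjusted p = 0.103), on 888 to 1125 reads per sample, the fewest of the 10 genes. ETV5 was at 75.35, 71.81 and 72.15 FPKM in sh-NC and at 68.06, 70.59 and 71.86 FPKM in sh-TRAF2. Its log2 fold change was -0.06 (SE 0.037, 95% interval -0.14 to 0.03, limma adjusted p = 0.23), so a fall of ETV5 as large as that of DUSP4 lies outside its interval.

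PHLDA1 had the largest fall of the 10 genes. It was at 171.5, 166.0 and 165.4 FPKM in sh-NC and at 122.7, 99.01 and 113.4 FPKM in sh-TRAF2. The groups were far apart relative to their spread, with means of 168.0 ± 3.33 and 112.0 ± 12.0 FPKM (SD, n = 3 each). PHLDA1 fell by 33.4%, or by 0.59 on the log2 scale (SE 0.069, 95% interval -0.75 to -0.43, limma adjusted p = 2.98e-04), and 4.0% of all tested genes had a lower log2 fold change. Its sh-TRAF2 samples were more spread (coefficient of variation 10.7%) than its sh-NC samples (1.99%).

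**Figure D2:**
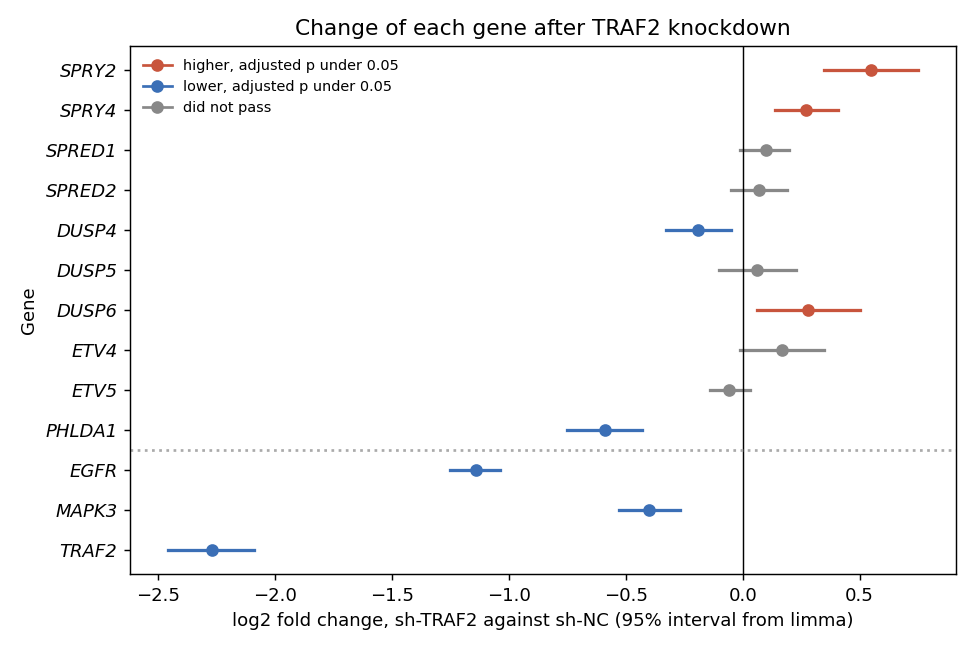
Log2 fold change of sh-TRAF2 against sh-NC for the 10 ERK feedback and output genes and, below the dotted line, for EGFR, the ERK kinase gene MAPK3, and TRAF2; bars are 95% intervals from limma on 3 samples per group. The 10 genes lie on both sides of 0, from -0.59 for PHLDA1 to 0.55 for SPRY2. The genes below the line run from -0.40 for MAPK3 to -2.27 for TRAF2. TRAF2 is the target, EGFR was shown because its mRNA was lower, and MAPK3 was named after its values were seen.

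PHLDA1 was the most abundant of the 10 genes and set much of their summed level. In sh-NC the order of mean FPKM was PHLDA1 (168.0), ETV5 (73.1), DUSP5 (39.2), SPRY4 (19.1), DUSP6 (16), SPRED2 (12.6), DUSP4 (12.5), SPRY2 (10.2), ETV4 (9.62) and SPRED1 (9.35). Neighbours in that order had separate sample ranges except SPRED2 with DUSP4, SPRY2 with ETV4 and ETV4 with SPRED1. In sh-TRAF2 the first 5 places were the same, and SPRY2 stood 6th rather than 8th, above SPRED2 and DUSP4, with ranges that overlapped only among DUSP4, ETV4 and SPRED1. The summed level of the 10 genes was 380.8, 367.6 and 359.6 FPKM in sh-NC and 341.5, 309.9 and 324.2 FPKM in sh-TRAF2, and PHLDA1 made up 45.0% to 46.0% of it in sh-NC and 32.0% to 35.9% in sh-TRAF2. The mean of the log2 values, in which each gene weighs the same, was 4.47, 4.46 and 4.38 in sh-NC and 4.56, 4.47 and 4.47 in sh-TRAF2. The sum was lower in every sh-TRAF2 sample than in any sh-NC sample, whereas the means of the log2 values met at 4.47.

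Ratios between related genes were taken within each sample, which removes any difference in how libraries were scaled. The log2 ratio of SPRY2 to SPRY4 was -0.88, -0.87 and -1.0 in sh-NC and -0.60, -0.65 and -0.67 in sh-TRAF2, with no overlap and a mean difference of 0.28. The log2 ratio of DUSP6 to DUSP4 was 0.49, 0.06 and 0.52 in sh-NC and 1.02, 0.59 and 0.87 in sh-TRAF2, again with no overlap and a mean difference of 0.47. For both of these ratios the two-sided exact permutation test gave p = 0.1, which is the smallest it can give, and 0.25 after Benjamini-Hochberg adjustment over the 5 ratios computed. The ratios of DUSP6 to DUSP5 (difference 0.22, exact permutation p = 0.2), ETV4 to ETV5 (0.23, exact permutation p = 0.2) and SPRED1 to SPRED2 (0.03, exact permutation p = 0.6) overlapped between groups.

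**Figure D3:**
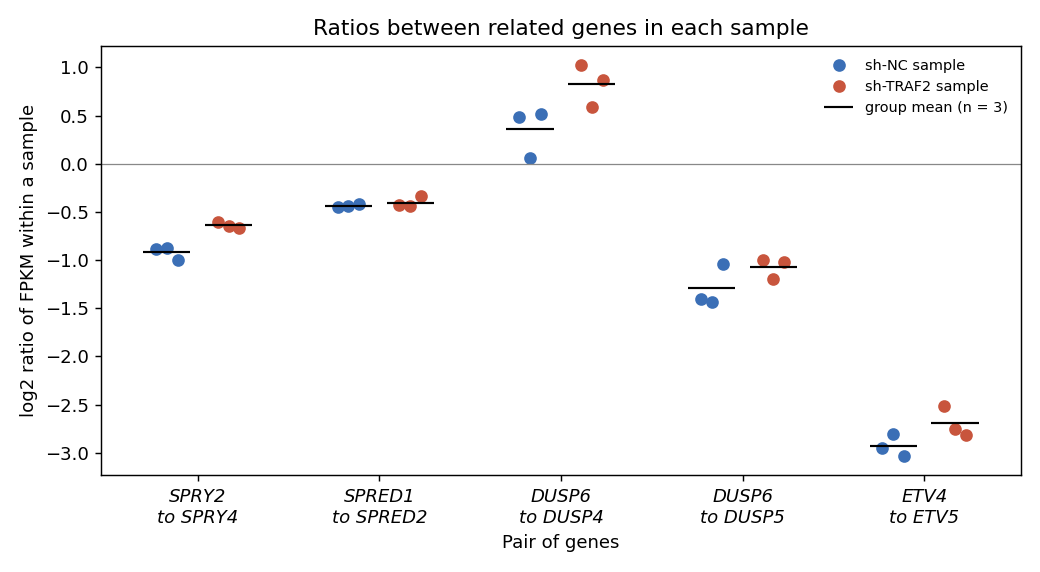
Log2 ratio of FPKM between 2 related genes in the same sample, for 5 pairs, with a point per sample and a bar at each group mean (n = 3). The sh-TRAF2 points lie above all sh-NC points for SPRY2 to SPRY4 and for DUSP6 to DUSP4, and overlap with them in the other 3 pairs.

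Close relatives of the 10 genes also moved both ways. Of 12 paralogues with values, 11 were tested, of which 4 were higher, 5 were lower and 2 did not pass, so that 81.8% passed, beside 44.6% of all tested genes (23.7% higher, 20.9% lower), with a median log2 fold change of -0.09. Leaving out sh-NC replicate 1 or sh-TRAF2 replicate 3 left 2 lower, and leaving out sh-TRAF2 replicate 2 left 3. The clearest was PHLDA2, a small pleckstrin homology protein of the PHLDA1 family, at 75.82, 77.22 and 59.87 FPKM in sh-NC and 142.7, 129.5 and 133.6 FPKM in sh-TRAF2. PHLDA2 rose by 0.94 on the log2 scale (SE 0.091, limma adjusted p = 1.22e-04), opposite to the fall of PHLDA1. DUSP16, a phosphatase for the stress kinases JNK and p38, fell by 0.48 (SE 0.061, limma adjusted p = 4.34e-04). DUSP7, the nearest relative of DUSP6 in this list and also selective for ERK, was at 21.38, 25.83 and 21.45 FPKM in sh-NC and 16.17, 17.46 and 14.81 FPKM in sh-TRAF2 and fell by 0.50 (SE 0.087, limma adjusted p = 0.00219). SPRY1 and SPRED3, named after their values were seen, rose by 0.61 and 0.56 (limma adjusted p = 0.0025 and 0.00553), as SPRY2 did, although SPRY1 stood at no more than 2.489 FPKM in any sample.

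Other genes that ERK induces were mostly higher or did not pass. Of 16 with values, 14 were tested, with 7 higher, 1 lower and 6 that did not pass, so that 57.1% passed, beside 44.6% of all tested genes (23.7% higher, 20.9% lower), and their median log2 fold change was 0.21, beside 0.02. Without sh-NC replicate 3, 2 were lower. IER2, an immediate-early gene, was at 62.44, 61.03 and 56.67 FPKM in sh-NC and 83.72, 84.80 and 86.68 FPKM in sh-TRAF2, and rose by 0.50 on the log2 scale (SE 0.043, limma adjusted p = 6.67e-05). EGR1, an immediate-early zinc finger factor, was at 9.73, 5.89 and 7.87 FPKM in sh-NC and 17.40, 15.52 and 17.24 FPKM in sh-TRAF2, and rose by 1.11 (SE 0.15, limma adjusted p = 6.85e-04). FOS, a subunit of AP-1, rose by 1.89 (SE 0.19, limma adjusted p = 1.38e-04), but from 0.254 to 0.345 FPKM in sh-NC to 1.18 to 1.67 FPKM in sh-TRAF2, on 19 to 122 reads per sample. Its sh-NC mean of 0.293 FPKM lay below the 0.5 FPKM limit, so its sh-TRAF2 samples brought it into the test. With a mean of at least 1 FPKM required, FOS was not tested and 6 genes of this list were higher. FOS and EGR1 were the genes of this list that also passed a log2 fold change of 1, but FOS gave 0.87 with a pseudocount of 1 FPKM and EGR1 gave 0.92 without sh-NC replicate 2. MYC, the gene that was lower, fell by 0.14 (limma adjusted p = 0.0134), and CCND1, the cyclin D1 gene, gave -0.08 and did not pass (limma adjusted p = 0.519).

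**Figure D4:**
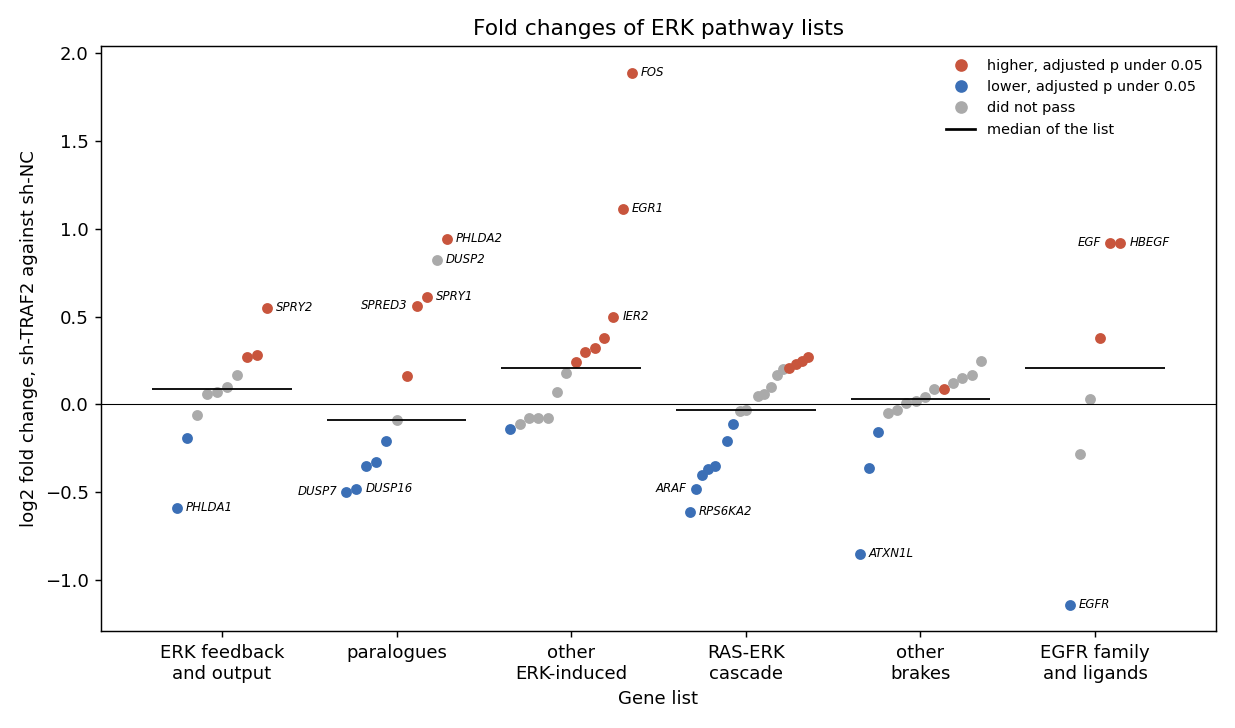
Log2 fold change of sh-TRAF2 against sh-NC for the tested genes of 6 lists that are reported here, ordered by value within a list, with red for higher and blue for lower at a limma adjusted p under 0.05, grey for genes that did not pass, and a line at the median of each whole list. Genes beyond 0.45 in either direction are named. The feedback and output genes span less than the other ERK-induced genes, which reach 1.89 for FOS, whose sh-NC mean lay below the 0.5 FPKM limit. The RAS-ERK cascade genes shown reach -0.61 for RPS6KA2.

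Upstream, mRNA of the receptor and of the ERK kinase gene MAPK3 was lower. EGFR was at 32.37, 32.02 and 30.91 FPKM in sh-NC and at 14.25, 13.76 and 14.96 FPKM in sh-TRAF2, and fell by 1.14 on the log2 scale (SE 0.046, limma adjusted p = 2.23e-06). MAPK3, which encodes ERK1 and was named after its values were seen, fell by 0.40 (SE 0.056, limma adjusted p = 7.23e-04). Of 21 tested genes of the RAS-ERK cascade 4 were higher, 9 were lower and 8 did not pass, so that 61.9% passed, beside 44.6% of all tested genes (23.7% higher, 20.9% lower), with a median of -0.03. ARAF, a RAF kinase, fell by 0.48 (SE 0.055, limma adjusted p = 2.57e-04), and RPS6KA2, a kinase downstream of ERK, fell by 0.61 (SE 0.075, limma adjusted p = 3.82e-04). MAP2K1, which encodes MEK1, was among the 4 that rose, by 0.25 (limma adjusted p = 0.00248). These are mRNA levels, and the phosphorylation of ERK was not measured in these files.

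The EGFR family list had 6 tested genes, of which EGF, HBEGF and TGFA were higher, EGFR was lower and ERBB2 and BTC did not pass, so that 66.7% passed, beside 44.6% of all tested genes. HBEGF, an EGFR ligand, was at 35.69, 38.43 and 29.63 FPKM in sh-NC and 70.44, 64.78 and 60.70 FPKM in sh-TRAF2, and rose by 0.92 (SE 0.094, limma adjusted p = 1.52e-04). EGF, another ligand, rose by 0.92 (SE 0.095, limma adjusted p = 1.63e-04) at 2.197 FPKM or less. TGFA, a ligand too, gave 0.38 (limma adjusted p = 0.048), with sample ranges that overlapped. Only 2 genes of the list, EGF and HBEGF, were higher without a filter, under TPM, under quantile normalization and without a trend. The same held with any 1 sample left out except sh-NC replicate 3, without which 3 were higher.

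Other brakes on the pathway mostly did not pass. Of 14 tested, PEA15 was higher, 3 were lower and 10 did not pass, which is 28.6% passing, beside 44.6% of all tested genes. ATXN1L, a partner of the repressor CIC, was at 16.60, 17.09 and 16.42 FPKM in sh-NC and at 9.35, 8.67 and 9.72 FPKM in sh-TRAF2, and fell by 0.85 (SE 0.054, limma adjusted p = 1.67e-05). CIC itself gave 0.01 (95% interval -0.16 to 0.17, limma adjusted p = 0.94), and DUSP6, which among the 6 ERK genes with windows was the one with a CIC motif, gave 0.28. DUSP4, DUSP5, ETV4 and ETV5 had no window to search. Of these, ETV4 (0.17, limma adjusted p = 0.103), ETV5 (-0.06, limma adjusted p = 0.23) and DUSP5 did not pass, and DUSP4 fell. The call of DUSP6 held under 7 of 15 alternatives, and a link between ATXN1L, CIC and DUSP6 was not tested. RASA1, a RAS GTPase-activating protein, fell by 0.36 (SE 0.056, limma adjusted p = 0.0013). NF1, the gene of neurofibromin, with which SPRED proteins act, fell by 0.16 (SE 0.05, limma adjusted p = 0.0304), a call that was lost without any 1 of the 6 samples (-0.17 to -0.15, limma adjusted p 0.0506 to 0.0821). PEA15, which binds ERK in the cytoplasm, rose by 0.09 (limma adjusted p = 0.047), and no brake was higher without sh-NC replicate 1 or without any 1 of the sh-TRAF2 replicates, whereas 3 were without sh-NC replicate 2.

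A 7-base stretch of the sh-TRAF2#1 target was searched for in the 3′UTRs of these genes, since a short hairpin can pair with other transcripts. No other stretch of that target and no stretch of sh-TRAF2#2 was searched. A gene without a match was therefore not tested for pairing with the rest of either hairpin. The stretch ATTCCAC, bases 10 to 16 of the 21-base target of sh-TRAF2#1, was chosen with earlier results of these data known. It was present in the longest 3′UTR (GENCODE 29, GRCh38) of 1228 of 10606 tested genes, or 11.6%. Among the 10 ERK feedback and output genes only DUSP5 carried it, with 1 match, and PHLDA1, DUSP4, SPRY2, SPRY4 and DUSP6, which changed, did not. The share of genes with a match was 9.09% of the paralogues and 16.7% of the EGFR family list. It was 14.3% in each of the other ERK-induced genes, the cascade and the brakes. Outside the cascade, carriers went both ways. EGFR, ATXN1L, ETV1 (-0.33) and SYT1 (-0.86) fell, FOSB (0.38) and GFAP (1.11) rose, and LIF, SOX9 and ETV3 did not pass. The target sequences and the matches in DUSP5, EGFR and ATXN1L (the first of its 2) follow, 5′ to 3′ on the strand of the transcript, with ATTCCAC in capitals.
sh-TRAF2#1 target: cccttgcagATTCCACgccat
sh-TRAF2#2 target: ctggaccaagacaagattgaa
DUSP5, chr10:110511111-110511117, plus strand: aacttgtctcATTCCACctcttctcag
EGFR, chr7:55209508-55209514, plus strand: gtgagctgctATTCCACgtaggcaaca
ATXN1L, chr16:71853084-71853090, plus strand: ctcctgtcttATTCCACtgcttctccc
The coordinates are those of the 7 capital bases. DUSP5, with the match, had a log2 fold change of 0.06, while EGFR and ATXN1L had -1.14 and -0.85, and ETV3, a brake with 1 match, had 0.15 and did not pass. Whether the hairpin acts on any of these transcripts was not tested.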

How the data were processed

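RNA of 3 sh-NC and 3 sh-TRAF2 U251 samples was sequenced, and OE Biotech prepared the libraries and processed the reads. The authors deposited FPKM values for 23002 genes. Submitters' processing notes name HISAT2, HTSeq, DESeq2 and R 3.2.0 without roles; the genome build, annotation and strand setting are not given in the sources used here, so overlapping genes cannot be told apart. FPKM are not rescaled to a common total.

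From these values, log2(FPKM + 0.1) was fitted with limma 3.58.1 in R 4.3.3 (eBayes with a trend, two-sided, Benjamini-Hochberg adjustment) for the 11870 genes whose mean reached 0.5 FPKM. The pseudocount understates changes of low genes. Single ratios used exact permutation tests (scipy 1.17.1). Whole reads were recovered from the steps of the FPKM, with whole gene lengths for 100.0% of genes, and 99.6% of each library total lay on listed genes. Intervals do not cover bias of the counting. The fit was tested on simulated data, but only with changes larger than that of any of the ERK genes. That test therefore does not cover changes of their size.

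The ERK genes and all lists were chosen with earlier results of these data known. Named are all 10 ERK genes, TRAF2, EGFR, and from each other list the 3 genes with the smallest adjusted p and those past both thresholds; others were chosen after their values were seen. Some cascade genes are counted in their list but not reported here by name. DUSP9, EGR4, CHI3L1 and AIF1 were in the lists but were not found under these names among the 23002 genes, and so were not analysed here. Alternatives were pseudocounts of 1 and 0.01, no filter, a mean of at least 1 FPKM, TPM, quantile normalization, eBayes without a trend, a replicate block, limma-voom on recovered reads with a mean of at least 10, and each sample left out. Python 3.11.15, numpy 2.4.6, pandas 2.3.3 and matplotlib 3.10.9 were used.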

Additional observations from a re-analysis of the deposited data

How the results depend on the processing

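SPRY2, SPRY4 and PHLDA1 passed with the same direction under all 15 alternatives, DUSP4 passed under 9 and DUSP6 under 7, and SPRED1, SPRED2, DUSP5 and ETV4 passed under none. ETV5 passed under quantile normalization alone (-0.11, limma adjusted p = 0.0338). The number of ERK feedback and output genes that were lower went from 2 to 1 without a filter on low values and without a trend, and was 1 to 2 when 1 sample was left out. The DUSP5 log2 fold change reversed, to -0.0019, without sh-NC replicate 3 (range -0.0019 to 0.14 with 1 sample left out), and the SPRED1 to SPRED2 ratio reversed, to -0.0027, without sh-TRAF2 replicate 3 (range -0.0027 to 0.05). Lower paralogues numbered 3 without a filter and 2 to 5 with 1 sample left out. Lower genes among the other ERK-induced genes numbered 3 under quantile normalization and 1 to 2 with 1 sample left out. Higher genes among the other brakes numbered 0 without a filter, under TPM, under quantile normalization and without a trend, 2 with a mean of at least 1 FPKM, 4 with limma-voom on recovered reads, and 0 to 3 with 1 sample left out. Deviations of same-numbered samples of both groups had correlations of -0.081, 0.072 and 0.073, beside -0.141 to 0.067 for samples with different numbers. Whether the numbers pair the samples cannot be told from these values. With the replicate number as a block, 2 of the other ERK-induced genes were lower and 2 of the other brakes were higher, beside 1 and 1 without it. All genes tested then gave 2912 higher and 2539 lower. The cause of these changes was not tested. The median log2 fold change of all genes was between -0.00 and 0.025 under every alternative. With 3 samples per group no exact permutation p can go below 0.1.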
